A study of Gallus gallus with 6 samples.

Results

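The genes described here are myostatin, the activin subunits, their type II receptors and the secreted antagonists that bind them: MSTN, INHBA, INHBB, ACVR2A, ACVR2B, WFIKKN1, WFIKKN2 and FST. They are 8 of the 21062 genes with a normalised value in all 6 libraries, and all 8 passed the filter on low values that left 16324 genes for testing. The genes were taken by name, with MSTN found under its older name GDF8. WFIKKN1 was selected on the measured values themselves, because its level was far higher with SU5402, so its difference between treatments is given as a description with no test. The gene set was put together with that result known, and the tests concern the other 7 genes.

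The libraries are bulk RNA sequencing of chick wing explants. The posterior part of the wing bud was cut from wild-type Bovan Brown embryos at stage HH20 and cultured in Growth Factor Reduced Matrigel and serum-containing CMRL medium. SU5402, an inhibitor of Fgf receptors dissolved in DMSO, was added at the start at 5 µM, or DMSO alone was added, and entire explants were sequenced at 48 h, with 3 libraries per treatment, each from a pool of explants. SU5402 libraries held 29390751, 37373688 and 36067053 reads on genes and DMSO libraries 25849833, 44261768 and 31687741.

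Both treatments share the stage, tissue, culture medium, solvent and time, and SU5402 is the difference between them. The comparison therefore asks how this signalling system stands in cultured wing tissue after 48 h with the Fgf receptor inhibitor. SU5402 is not specific to a single receptor, and the explants lack the blood flow and innervation of the wing. The sample titles call the tissue a limb bud explant. Markers of ectoderm, endothelium, skeletal muscle, macrophages and red blood cells were all detected, so levels are averages over a mixture. Fewer cells of a type and less RNA per cell cannot be told apart in such data. SPRY1, SPRY2, SPRY4 and DUSP6 (MKP3 in the files), which are targets of Fgf signalling, were all lower with SU5402, with log2 fold changes of -1.72, -1.43, -3.49 and -2.75 (adjusted p = 2.55e-04, 6.08e-04, 0.00125 and 1.81e-04, limma).

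Myostatin and the activins are ligands of the TGF-β family. They bind the type II receptors ACVR2A and ACVR2B, which recruit type I receptors and lead to phosphorylation of Smad2 and Smad3. Myostatin is made mainly by cells of the skeletal muscle lineage and restrains muscle growth. Activins are dimers of inhibin β subunits, the products of INHBA and INHBB. Follistatin, the product of FST, wraps around activins and myostatin and keeps them from their receptors, whereas the WFIKKN proteins bind myostatin and the closely related GDF11. In the limb bud, muscle precursors come from the somites, while the mesenchyme forms cartilage, tendon and connective tissue.

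Of the 7 genes other than WFIKKN1, 3 rose more than 2-fold with SU5402 (MSTN, INHBB and FST) and none fell (limma, with none lower at an unadjusted p under 0.05 and none called lower by edgeR or DESeq2). Across all genes tested, 6.26% rose and 4.54% fell by this rule, which asks for more than a 2-fold change with an adjusted p under 0.05. With the adjusted p alone, 5 of the 7 rose, adding INHBA and ACVR2A, and none fell, against 14.4% of all genes that rose and 16.0% that fell. In the same 5 genes every SU5402 library was above every DMSO library. Such separation was found upwards in 24.2% of all genes and downwards in 25.6%. WFIKKN2 and ACVR2B did not pass the test in either direction. The median log2 fold change of the 7 genes was 0.80, and that of all 16324 genes was 0.01.

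**Figure D1:**
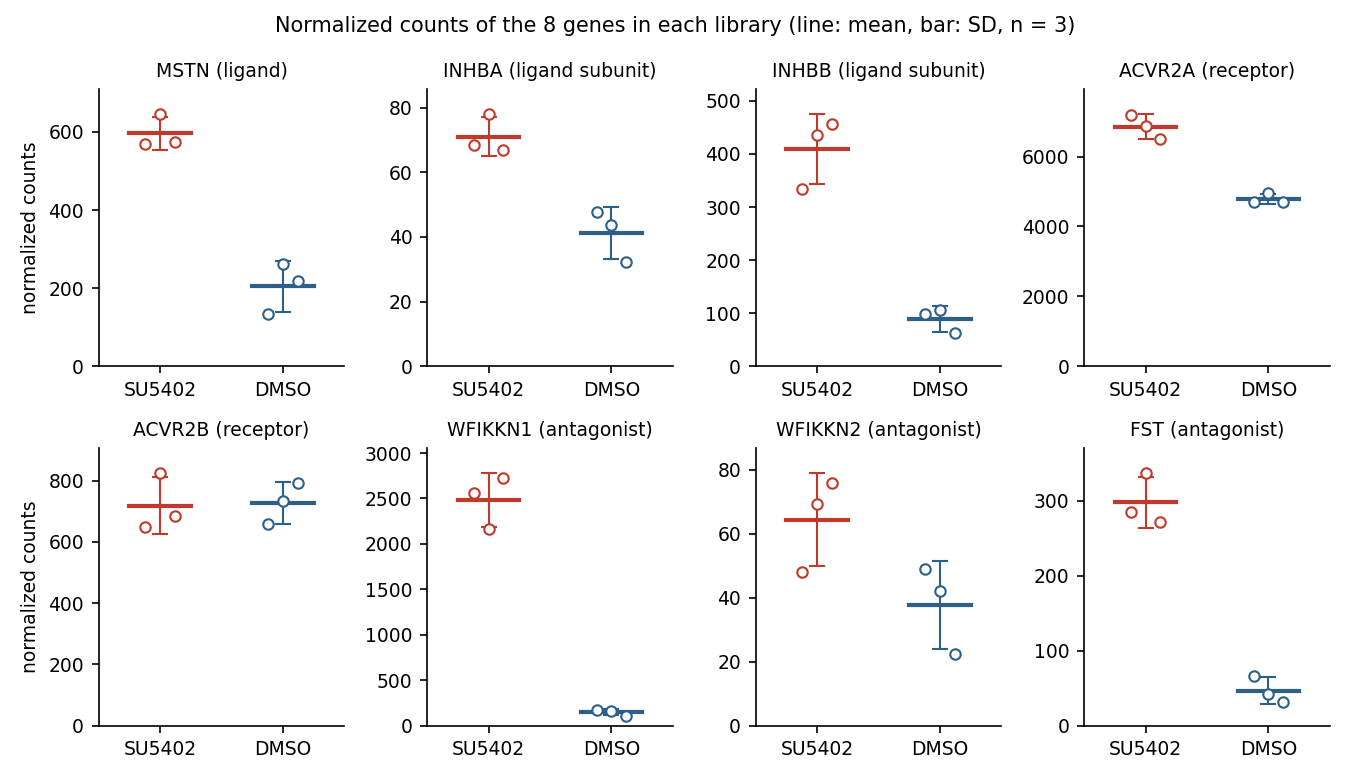
Normalised counts (y axes, each from 0) of the 8 genes in the SU5402 libraries (left, red) and DMSO libraries (right, blue), with circles for libraries, thick lines for means and bars for the SD of 3 libraries. The treatments overlap for ACVR2B and WFIKKN2 and are apart for the other 6 genes, with WFIKKN1 between 2159 and 2726 with SU5402 and between 111 and 168 with DMSO.

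Among the ligands, MSTN lies on chromosome 7 (ENSGALG00000039458, 252348 to 257840, plus strand, build GRCg6a). It had 569.7, 645 and 573 normalised counts in the SU5402 libraries, against 134, 261 and 219.5 in the DMSO libraries. The SU5402 libraries lay close together and all were more than 2 times as high as the highest DMSO library, while the DMSO libraries were spread, with replicate 1 lowest. The mean was 596 ± 42.7 with SU5402 and 205 ± 65.1 with DMSO (SD, n = 3 each), a 2.91-fold rise, and limma gave a log2 fold change of 1.59 (SE 0.26, 95% interval 0.94 to 2.24, adjusted p = 0.00936). Leaving out any 1 library gave 1.31 to 1.79 on the log2 scale with an adjusted p of at most 0.0365 by limma, the lowest value being that without DMSO replicate 1. The rise was not shown to exceed 2-fold (limma's treat against a 2-fold change, adjusted p = 0.538).

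GDF11, the closest relative of myostatin and the other ligand that WFIKKN proteins bind, did not pass the test. It had 746 ± 114 normalised counts with SU5402 and 791 ± 72.4 with DMSO (SD, n = 3 each), and its treatments overlapped (log2 fold change -0.09, SE 0.14, adjusted p = 0.654, limma). Per gene length, MSTN was at 1.08, 1.55 and 1.02 times the FPKM of GDF11 in the SU5402 libraries, against 0.265, 0.521 and 0.373 times in the DMSO libraries. Myostatin transcripts were thus the less abundant of the pair in every DMSO library and level with or above GDF11 in every SU5402 library.

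INHBB, the gene of the inhibin βB subunit found in activin B, is also on chromosome 7 (ENSGALG00000028770, 25563774 to 25568147, plus strand). Its normalised counts were 335, 436 and 457 in the SU5402 libraries and 99.3, 106 and 62.1 in the DMSO libraries. Every SU5402 library was thus more than 3 times as high as any DMSO library, and the spread within a treatment was much smaller than the gap. The rise was 4.59-fold in the means, with a log2 fold change of 2.21 (SE 0.24, 95% interval 1.60 to 2.82, adjusted p = 0.00284, limma).

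INHBA, which encodes the βA subunit of activin A, was low in both treatments (ENSGALG00000034616, chromosome 2, 50572648 to 50587618, minus strand). It had 68.3, 77.9 and 66.7 normalised counts with SU5402 and 47.7, 43.6 and 32.1 with DMSO, and the treatments did not overlap. Its difference was smaller than that of INHBB, 1.73-fold, and its log2 fold change was 0.79 (SE 0.16, 95% interval 0.38 to 1.2, adjusted p = 0.0198, limma). This call depended on the tool. The adjusted p was 0.0661 with edgeR and 0.0714 with DESeq2 on the recovered reads, and in limma it reached 0.0626 when SU5402 replicate 2 was left out, was also above 0.05 without SU5402 replicate 1, SU5402 replicate 3 or DMSO replicate 2, and was below it without DMSO replicate 1 or DMSO replicate 3. In FPKM, INHBB exceeded INHBA in every library, by 4.12, 4.70 and 5.75 times with SU5402 and by 1.75, 2.05 and 1.62 times with DMSO. The 2 activin β subunits therefore lay further apart in level in every SU5402 library than in any DMSO library.

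The receptors differed little between treatments. ACVR2A, a type II receptor for activins and myostatin, had the highest level in both treatments (ENSGALG00000012444, chromosome 7, 34497511 to 34552031, plus strand). It had 7199.8, 6870.5 and 6487 normalised counts with SU5402 and 4712, 4958 and 4686 with DMSO. The libraries of each treatment agreed closely and the treatments did not overlap, so that a rise of only 1.43-fold passed the test on the adjusted p (log2 fold change 0.52, SE 0.06, 95% interval 0.35 to 0.68, adjusted p = 0.00417, limma) while it stayed below the 2-fold rule.

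ACVR2B, the receptor that myostatin binds most strongly in mammals, showed no difference beyond the spread (ENSGALG00000006158, chromosome 2, 5811828 to 5901800, minus strand). Its normalised counts were 647, 823 and 686 with SU5402 and 657, 732 and 793 with DMSO, with the ranges interleaved. The log2 fold change was -0.02 (SE 0.12, 95% interval -0.33 to 0.29, adjusted p = 0.911, limma), and its sign turned when SU5402 replicate 1, SU5402 replicate 3 or DMSO replicate 3 was left out (0.050, 0.0085 and 0.043). The interval does not reach a 2-fold change in either direction.

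Within each library the log2 ratio of ACVR2A over ACVR2B in FPKM was 2.73, 2.32 and 2.50 with SU5402 and 2.10, 2.02 and 1.82 with DMSO. ACVR2A transcripts outnumbered those of ACVR2B per length in all 6 libraries, and every SU5402 ratio was above every DMSO ratio. The difference was 0.54 on the log2 scale, a ratio 1.45 times as high with SU5402 (exact two-sided permutation test, p = 0.1, n = 3 each, adjusted p = 0.15 over the 3 ratios tested). With 3 libraries against 3 this test cannot go below 0.1.

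Among the antagonists, WFIKKN1 is a secreted protein with several protease-inhibitor-like and growth-factor-binding domains that binds myostatin and GDF11. Its gene lies on chromosome 14 (ENSGALG00000000044, 13962836 to 13964455, plus strand), and its gene model length of 1620 bases equals the distance from its start to its end, which leaves no intron in the model. WFIKKN1 had 2563, 2159 and 2726 normalised counts with SU5402, against 168, 165 and 111 with DMSO. These are the values for which the gene was chosen. The lowest SU5402 library was far above the highest DMSO library, and the means differed 16.7-fold (4.07 on the log2 scale). In order of size this was number 32 among the 16324 genes tested and number 24 among 14096 protein-coding genes.

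WFIKKN2, its paralogue with the same domain make-up and the same known ligands, did not pass the test (ENSGALG00000007367, chromosome 18, 10096028 to 10100634, minus strand). It had 48.1, 69.2 and 75.9 normalised counts with SU5402 and 49.0, 42.1 and 22.5 with DMSO. The lowest SU5402 library was just below the highest DMSO library, and the log2 fold change was 0.80 (SE 0.34, 95% interval -0.05 to 1.64, adjusted p = 0.135, limma). The interval is wide at this depth, with 21 to 83 reads per library, and leaves room for no change as well as for a 3-fold rise. In FPKM, WFIKKN1 was 80.3, 47.1 and 54.2 times as high as WFIKKN2 in the SU5402 libraries and 5.18, 5.92 and 7.47 times as high in the DMSO libraries.

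FST encodes follistatin, which binds activins with very high affinity (ENSGALG00000014908, chromosome Z, 16072541 to 16079179, plus strand). Its normalised counts were 285, 336 and 272 in the SU5402 libraries and 66.2, 42.1 and 32.1 in the DMSO libraries. The lowest SU5402 library was more than 4 times as high as the highest DMSO library. The rise was 6.36-fold in the means, with a log2 fold change of 2.70 (SE 0.27, 95% interval 2.01 to 3.39, adjusted p = 0.00215, limma). It was the only one of MSTN, INHBB and FST to pass the test against a 2-fold change (adjusted p = 0.0272, limma's treat). FST is Z-linked, and the sex of the pooled embryos is not given in the labels. The share of normalised counts on 82 protein-coding W genes, carried by females alone, was 0.179%, 0.0359% and 0.108% in the SU5402 libraries and 0.154%, 0.163% and 0.0910% in the DMSO libraries. Without SU5402 replicate 2, the library with the smallest W share, FST had a rise of about the same size (log2 fold change 2.61, adjusted p = 0.0121, limma). The median log2 fold change of the Z genes tested was 0.11. The part of embryo sex in the level of FST was not tested.

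In FPKM, the log2 ratio of the ligand subunit gene INHBA to the antagonist gene FST differed in sign between the treatments. The log2 ratio of INHBA over FST in FPKM was -1.30, -1.34 and -1.26 with SU5402, against 0.29, 0.82 and 0.77 with DMSO. INHBA was thus above FST in FPKM in each DMSO library and below it in each SU5402 library. The ratio with SU5402 was 0.263 times that with DMSO (difference -1.92 on the log2 scale, exact two-sided permutation test, p = 0.1, the smallest possible, n = 3 each, adjusted p = 0.15 over 3 ratios). The DMSO order depends on the gene lengths. In normalised counts, INHBA had 47.7, 43.6 and 32.1 with DMSO and FST had 66.2, 42.1 and 32.1, so INHBA was not above FST in each library. INHBB, in contrast, was above FST in FPKM in every library of both treatments. With SU5402, INHBB had 4.81, 6.27 and 6.57 and FST had 2.87, 3.38 and 2.73. With DMSO, INHBB had 1.43, 1.53 and 0.893 and FST had 0.666, 0.423 and 0.323. The ratio of INHBB to FST was not tested. FST stood at 0.191, 0.199 and 0.181 times the FPKM of MSTN with SU5402 and 0.189, 0.0613 and 0.0558 times with DMSO, where DMSO replicate 1 fell among the SU5402 libraries. WFIKKN1 stood at 3.13, 2.33 and 3.31 times MSTN with SU5402 and 0.876, 0.440 and 0.353 times with DMSO. In FPKM, the transcripts of this antagonist were above those of myostatin in every SU5402 library and below them in every DMSO library. WFIKKN1 was chosen for its rise, so this comparison is a description. In normalised counts of the DMSO libraries, WFIKKN1 (168) was above MSTN (134) in replicate 1 and below it in replicates 2 and 3.

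**Figure D2:**
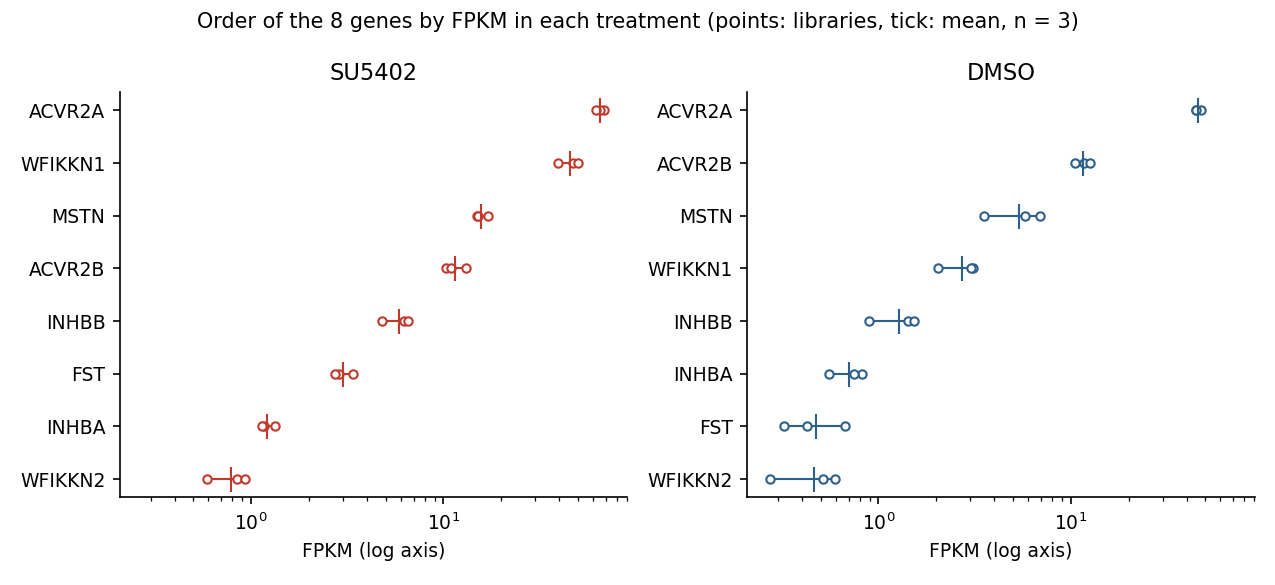
FPKM (log x axes) of the 8 genes in SU5402 libraries (left) and DMSO libraries (right), sorted by the mean, with circles for libraries and a tick for the mean of 3. ACVR2A leads in both treatments, and WFIKKN1 is second with SU5402 (45.6) and number 4 with DMSO (2.72).

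FPKM values divide by gene length and so allow levels to be compared between genes, within the limits of the gene models used, 1128 bases for MSTN and 3121 bases for ACVR2A. With SU5402 the order of mean FPKM was ACVR2A (65.4 ± 3.40), WFIKKN1 (45.6 ± 5.37), MSTN (15.7 ± 1.13), ACVR2B (11.5 ± 1.48), INHBB (5.89 ± 0.942), FST (3.00 ± 0.343), INHBA (1.22 ± 0.104) and WFIKKN2 (0.785 ± 0.176; SD, n = 3 libraries each). No neighbours in this order overlapped between libraries. With DMSO it was ACVR2A (45.6 ± 1.43), ACVR2B (11.6 ± 1.09), MSTN (5.41 ± 1.72), WFIKKN1 (2.72 ± 0.587), INHBB (1.28 ± 0.342), INHBA (0.704 ± 0.138), FST (0.471 ± 0.176) and WFIKKN2 (0.461 ± 0.168). Here the ranges of INHBA and FST overlapped, as did those of FST and WFIKKN2. Within each DMSO library INHBA was the highest of these 3 genes in FPKM, while FST was above WFIKKN2 in replicates 1 and 3 and below it in replicate 2. With SU5402, WFIKKN1 stood above MSTN and ACVR2B, and FST above INHBA, in every library, and with DMSO both orders were reversed in every library. The DMSO orders of WFIKKN1 with MSTN and of INHBA with FST depend in part on the gene lengths. WFIKKN1 was chosen for its rise, so its place is a description.

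MSTN and several of these genes are known from muscle, and muscle genes were higher with SU5402 as well. PAX3, PAX7, MYF5, MYOD1 and MYOG, transcription factors of muscle precursors and myoblasts, all rose, with log2 fold changes of 1.16, 2.53, 2.30, 2.14 and 3.76 (adjusted p = 4.77e-04, 1.81e-04, 0.00207, 4.99e-04 and 0.0102, limma). Of a list of 12 skeletal muscle markers, which holds these 5, 11 rose more than 2-fold and none fell, and their summed normalised counts were 7491 to 9681 with SU5402 and 2333 to 2627 with DMSO. None of the 12 was at 0 in an SU5402 library, and MYMK alone, the gene of the fusion protein myomaker, was at 0 in a DMSO library.

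Set against the mean log2 level of the 5 regulators in the same library, MSTN lay at -0.66, -0.10 and -0.57 with SU5402 and -0.36, 0.64 and 0.76 with DMSO on the log2 scale. MSTN thus gained less than the regulators in the means, by -0.79, but DMSO replicate 1 fell among the SU5402 libraries and the difference was not beyond the spread (exact two-sided permutation test, p = 0.2, n = 3 each, adjusted p = 0.2 over 3 ratios). Leaving out a library in turn gave -1.14 to -0.58, the first without DMSO replicate 1. WFIKKN1 went the other way. It lay at 1.51, 1.64 and 1.68 above the mean of the regulators with SU5402 and at -0.04, -0.02 and -0.22 with DMSO, a larger difference between treatments than that of this mean (description only, since the gene was chosen for its rise). Singly, PAX3, PAX7, MYF5 and MYOD1 had log2 fold changes of 1.16 to 2.53. MYOG had 3.76 (95% interval 2.18 to 5.33), beside 4.07 for WFIKKN1. MYMK, with 0 to 11 reads in the DMSO libraries, had 4.91 and passed the filter only with the SU5402 libraries counted. Its log2 fold change ran from 1.56 to 5.82 over the alternative settings, and its call was lost in 2 of 18, so its place beside WFIKKN1 is uncertain. The other muscle markers on the list had less than WFIKKN1.

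FST, INHBB, INHBA and WFIKKN2 lay below the mean of the muscle regulators in all 6 libraries. FST relative to them was -1.65, -1.04 and -1.64 with SU5402 and -1.37, -1.97 and -1.98 with DMSO, and INHBB was -1.42, -0.67 and -0.89 with SU5402 and -0.79, -0.65 and -1.05 with DMSO, so both overlapped between treatments. INHBA relative to them was -3.70, -3.14 and -3.65 with SU5402 and -1.83, -1.91 and -1.98 with DMSO, and WFIKKN2 was -4.20, -3.31 and -3.47 with SU5402 and -1.79, -1.97 and -2.47 with DMSO. For both genes every SU5402 library lay below every DMSO library on this scale. These comparisons with the regulators, other than that of MSTN, were added after the values were seen and were not tested. Whether the muscle genes have a part in the levels of MSTN, FST, INHBB or WFIKKN1 was not tested.

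**Figure D3:**
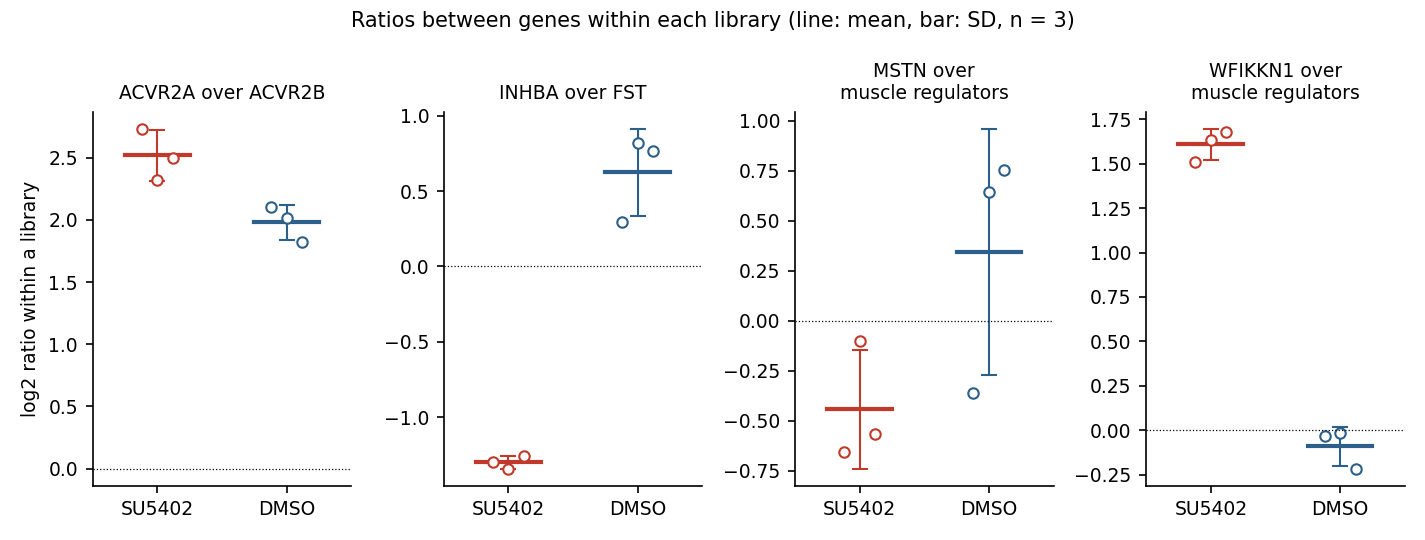
Log2 ratio within each library (y axes, each with its own range) of ACVR2A over ACVR2B and INHBA over FST, both in FPKM, and of MSTN and WFIKKN1 over the mean of 5 muscle regulators in log2 normalised counts, with SU5402 left of DMSO, circles for libraries, lines for means and bars for the SD. Treatments overlap only for MSTN over the regulators, where DMSO replicate 1 (-0.36) lies among the SU5402 libraries.

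Markers of other cell types moved too. Of 8 ectoderm markers 5 rose more than 2-fold and none fell (summed normalised counts 42343 to 46359 with SU5402 and 17545 to 20958 with DMSO), and of 5 macrophage markers 3 rose (2051 to 2652 with SU5402 and 789 to 1002 with DMSO). Of 8 endothelial markers 6 fell and none rose (4792 to 5363 with SU5402 and 23506 to 23800 with DMSO), and of 8 cartilage markers 5 fell (21672 to 26246 with SU5402 and 27699 to 37733 with DMSO). Of 10 limb mesenchyme markers 1 rose and 2 fell, and none of the 4 tendon or 4 glial markers passed both thresholds with limma, edgeR or DESeq2. At an unadjusted p under 0.05, 1 tendon marker was lower and 2 glial markers were higher. The share of all genes by that unadjusted rule is not given here. By the adjusted p alone, the tendon marker SCX was lower (log2 fold change -0.51, adjusted p = 0.0372, limma). The glial marker ERBB3 was higher by that rule (0.74, adjusted p = 0.0171, limma). Of 4 red cell genes tested 2 rose (10946 to 15329 with SU5402 and 4272 to 5049 with DMSO). The part of these cell types in the levels of the 8 genes was not tested.

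Beyond the 8 genes, 43 genes from 5 lists of the wider activin and TGF-β pathway had values and 42 were tested. By both thresholds 2 rose (TGFB2 and FSTL3) and 1 fell (PCSK6), beside 6.26% and 4.54% of all genes tested. By the adjusted p alone 11 rose and 8 fell, beside 14.4% and 16.0% of all genes, and the median log2 fold change was -0.01. The genes NODAL, TDGF1, TDGF3, LTBP3, LTBP4, BMP1, SMAD4 and FOXH1 were on the lists and were not analysed here.

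**Figure D4:**
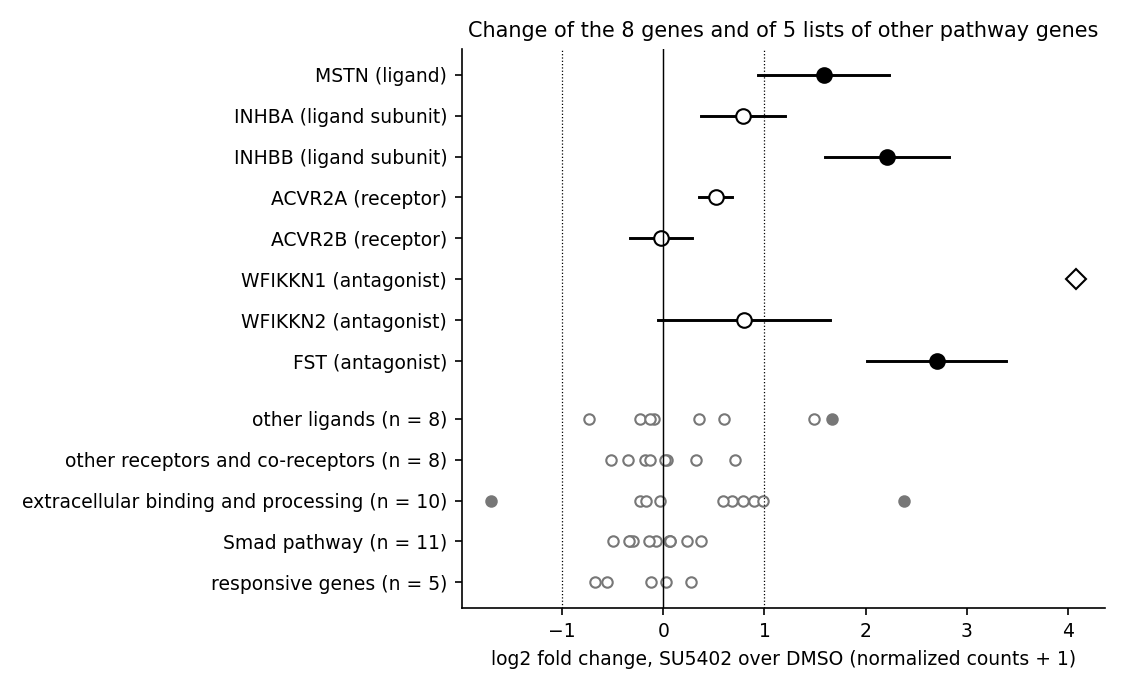
Log2 fold change of SU5402 over DMSO (x axis, normalised counts with 1 added) for the 8 genes, with lines for the 95% interval of limma, and for the genes tested in each of 5 pathway lists (grey). Filled symbols pass both thresholds, dotted lines mark a 2-fold change, and the diamond is WFIKKN1, shown at 4.07 without a test. MSTN, INHBB and FST and 3 grey points are filled.

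Of 8 other ligands tested, 1 rose more than 2-fold. TGFB2, a TGF-β ligand with roles in mesenchyme and cartilage, had 10589 ± 304 normalised counts with SU5402 and 3451 ± 1159 with DMSO (SD, n = 3 each, log2 fold change 1.67, SE 0.24, adjusted p = 0.00684, limma). TGFB3, the most abundant of the ligands that did not pass both thresholds, had a log2 fold change of 0.35 (adjusted p = 0.0136, limma). INHA, the α subunit that turns an activin β subunit into an inhibin, had 48.8 ± 19.9 with SU5402 and 17.1 ± 9.34 with DMSO (log2 fold change 1.49, adjusted p = 0.0612, limma). It did not pass in the design used here and passed in 7 of 15 alternatives, edgeR and DESeq2 among them.

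None of 8 further receptors and co-receptors passed both thresholds with limma, edgeR or DESeq2. At an unadjusted p under 0.05, 1 was higher and 2 were lower. The share of all genes by that unadjusted rule is not given here. ACVR1, a type I receptor and the highest of the 8 in normalised counts, had a log2 fold change of -0.18 (adjusted p = 0.0880, limma). Below 2-fold, TGFBR3, or betaglycan, which presents TGF-β2 and inhibin to their receptors, was higher (0.71, adjusted p = 0.00731, limma), and TGFBR1, the type I receptor for TGF-β, was lower (-0.52, adjusted p = 0.0135, limma). ACVR1B, the main type I receptor of activin, had 2319 ± 146 normalised counts with SU5402 and 2253 ± 127 with DMSO (SD, n = 3 each), with overlap.

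Among 10 extracellular binding and processing genes, FSTL3 rose and PCSK6 fell. FSTL3, a follistatin relative that also binds activins and myostatin, had 473 ± 12.1 normalised counts with SU5402 and 100.2 ± 57.6 with DMSO (SD, n = 3 each, log2 fold change 2.38, SE 0.41, adjusted p = 0.0111, limma). PCSK6, a proprotein convertase that cleaves ligand precursors of this family, had 384 ± 41.9 with SU5402 and 1249 ± 71.8 with DMSO (log2 fold change -1.70, SE 0.10, adjusted p = 5.18e-04, limma). FURIN, a convertase of the same class, overlapped between treatments (log2 fold change -0.03, adjusted p = 0.790, limma), and PCSK5 differed by 0.59 (adjusted p = 0.0260, limma). LTBP1, an extracellular protein that holds latent ligands in the matrix, and its relative LTBP2 were higher by 0.89 and 0.99 on the log2 scale (adjusted p = 0.00227 and 0.00231, limma). Both were just under the 2-fold rule, and LTBP2 passed it in 4 of 6 fits with a library left out. TLL2, a protease of the tolloid class known to release myostatin from its latent complex, was higher by 0.79 (adjusted p = 0.00538, limma), and FSTL1, the most abundant gene of the list, was lower by -0.23 (adjusted p = 0.0379, limma).

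None of 11 Smad pathway genes and none of 5 responsive genes passed both thresholds with limma, edgeR or DESeq2. At an unadjusted p under 0.05, 2 Smad pathway genes were higher and 4 lower, and 1 responsive gene was higher and 2 lower. The share of all genes by that unadjusted rule is not given here. By the adjusted p alone, 1 Smad pathway gene was higher and 3 lower, and 0 responsive genes were higher and 1 lower. By that adjusted rule, 14.4% of all genes were higher and 16.0% lower. SMAD3, the most abundant Smad pathway gene on the list and a carrier of the activin and myostatin signal, had 7139.9 ± 438 normalised counts with SU5402 and 6828 ± 430.1 with DMSO (SD, n = 3 each, log2 fold change 0.06, adjusted p = 0.581, limma). PPM1A, a phosphatase that acts on Smad2 and Smad3, was lower by -0.50 (adjusted p = 0.00301, limma). TGFBI, a matrix protein induced by TGF-β and the most abundant of the responsive genes, was lower by -0.67 (adjusted p = 0.00216, limma). RNA levels of these genes do not measure Smad phosphorylation, which was not part of these data.

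The 3 genes nearest to WFIKKN1 in profile over the 6 libraries were MYH1D, COL14A1 and TLX3, among 11435 genes compared, with root mean square differences between centred log2 profiles of 0.133, 0.211 and 0.277. MYH1D is a myosin heavy chain gene of skeletal muscle, from a family of close relatives that can share reads, and had 806, 683 and 805 normalised counts with SU5402 and 39.7, 48.9 and 31.1 with DMSO. COL14A1, a fibril-associated collagen of connective tissue, had 16082, 19083 and 16116 with SU5402 and 1438, 1230.2 and 835 with DMSO. TLX3, a homeobox gene, had 17 to 28 reads with SU5402 and at most 1 read with DMSO, at least 6.40-fold higher when each DMSO library is set to 3 reads. These are descriptions, since likeness to WFIKKN1 selects genes with the same difference.

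The nearest to MSTN were ANO6, SLC6A7 and GRIN2B, with root mean square differences of 0.147, 0.168 and 0.175. ANO6, which encodes a scramblase of membrane lipids, had 416, 454 and 370.3 normalised counts with SU5402 and 94.0, 140 and 145 with DMSO. Like MSTN, all 3 genes were lowest in DMSO replicate 1, which choosing by likeness over the 6 libraries favours. GRIN2B, a subunit of glutamate receptors, was close to the filter, with 4 to 29 reads per library. None of these 3 genes belongs to the muscle list, which does not cover all muscle genes and leaves out MYH1D too. Their likeness to MSTN is over 6 libraries only, and it selects genes with the same difference between treatments.

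Genes beside the members in the annotation were read from the same libraries, after the values were seen. Next to WFIKKN1, 3754 bases further on and on the same strand, MCRIP2 also rose (1356 ± 134 normalised counts with SU5402 and 527 ± 86.0 with DMSO, SD, n = 3 each, log2 fold change 1.37, adjusted p = 0.00269, limma), whereas RAB40C, 5472 bases before it, was slightly lower (log2 fold change -0.22, adjusted p = 0.0377, limma). Next to MSTN, C2orf88, 21510 bases away on the opposite strand, rose (518 ± 72.0 with SU5402 and 244 ± 22.9 with DMSO, log2 fold change 1.08, adjusted p = 0.00377, limma), while PMS1 on the other side did not pass the test (-0.20, adjusted p = 0.101, limma). Next to ACVR2B, EXOG was lower by -0.54 (adjusted p = 0.00994, limma). The neighbours of FST and INHBB with values, among them NDUFS4, MOCS2, RALB and GLI2, did not pass the test, with log2 fold changes of 0.24, 0.14, 0.06 and 0.16. An unnamed long non-coding RNA on the opposite strand starts 223 bases from ACVR2B and had 169.7 ± 4.69 normalised counts with SU5402 and 156 ± 2.55 with DMSO. Whether the authors' counting used strand is not given in the sources used here, so reads from overlapping features on opposite strands, as annotated at INHBA, could not be assigned with certainty.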

How the data were processed

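Poly(A) RNA of 6 pools of chick wing explants was sequenced in paired reads of 150 bases. Per the methods and the submitters' processing notes, the authors mapped reads with HISAT2 2.0.5 to GRCg6a, counted them with featureCounts 1.5.0-p3 and compared treatments with DESeq2 1.20.0. The signal the authors deposited for each gene is its count divided by the library's size factor (normalised counts), and the FPKM values they deposited are these divided by gene length on a scale shared by all libraries. The log2 fold changes, p-values and group means in the same tables are the authors' own comparison and were not used. The values of each library were whole multiples of a single step (100% within 0.01 read), which gave the reads behind them.

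Normalised counts were tested with limma 3.58.1 (R 4.3.3) on log2(value + 1), keeping the 16324 genes that reached 10 in 3 or more libraries, with Benjamini-Hochberg adjustment over all of them. Calls needed more than a 2-fold change and an adjusted p under 0.05, which gave 1022 higher and 741 lower with SU5402. The design had named edgeR for raw counts and limma for normalised values. On the recovered reads edgeR 4.0.16 called 1091 higher. Ratios between genes were tested by exact permutation of the 6 libraries. P-values measure the spread between libraries of pooled explants. The test was tried on simulated data.

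The genes and the lists were chosen with earlier results of these data known. Named beside the 8 genes are, per pathway list, up to 4 called genes with the smallest p. In each list the gene with the highest normalised counts among those not called is named as well. So are the 3 nearest profiles to WFIKKN1 and MSTN, 5 muscle regulators and 4 Fgf targets. Other pathway genes and the neighbouring genes were named after their values were seen. Gene names came from the files and, for a few genes such as MSTN, from RefSeq synonyms or the files' descriptions. No sequences were used here.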

Additional observations from a re-analysis of the deposited data

How the results depend on the processing

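Alternatives were a pseudocount of 0.5, no filter, a filter of 50, edgeR with TMM or RLE factors, DESeq2 1.42.0, limma with a trend, limma on FPKM of at least 1 with 1 or 0.1 added, limma's treat against 2-fold, the replicate number as a block, and each library left out. MSTN, INHBB and FST were higher by both thresholds in all of them except treat, which kept FST alone (1 of the 7 genes, with adjusted p = 0.538 for MSTN at 1.59 and 0.0591 for INHBB at 2.21), and treat called 0 pathway genes higher. FST reached 1 FPKM, and 50 normalised counts, in 3 libraries only through SU5402 (0.323 to 0.666 FPKM with DMSO). INHBB reached 1 FPKM in 3 libraries only with the SU5402 libraries counted. Those fits therefore add no separate support for these rises. Over all genes, treat called 224 higher and 230.0 lower, and limma on FPKM with 1 added called 453 and 450.0. That setting gave WFIKKN1 3.65 on the log2 scale and FST 1.45. ACVR2B turned sign without SU5402 replicate 1 (0.050), SU5402 replicate 3 (0.0085) or DMSO replicate 3 (0.043).

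Leaving out a library in turn gave 808 to 1000 genes higher and 621 to 722 lower, 3 of the 7 genes higher each time, and 2 to 3 pathway genes higher and 1 lower. It gave ACVR2B -0.12 to 0.050, and a difference of 0.43 to 0.64 for ACVR2A over ACVR2B, -2.09 to -1.83 for INHBA over FST and -1.14 to -0.58 for MSTN over the regulators. WFIKKN2 could not be fitted on FPKM or with the filter of 50, having too few libraries above them.

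The replicate numbers were not treated as pairs, since deviations from the group means correlated at only 0.039, 0.0032 and 0.057 between libraries of the same number over 16324 genes. With the replicate block limma called 878 genes higher and 3 of the 7 genes higher. WFIKKN2 and INHBA had 21 to 89 reads per library, and FST had 30 to 55 in the DMSO libraries, which limits the precision of their values.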
